A study of Capra hircus with 30 samples.

Results

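The genes described here are splicing factors of the hnRNP and SR families, together with the SF3A, SF3B and U2AF genes that recognise the 3' end of introns. They were chosen by gene symbol alone (HNRNP, SRSF, SF3A, SF3B or U2AF followed by a letter or number). The reference lists 43 such goat genes, and 38 of them were among the 20125 features of the table: 18 HNRNP, 11 SRSF, 8 SF3 and 1 U2AF gene. The other 5 (HNRNPAB, HNRNPF, SF3A2, U2AF1 and U2AF1L4) were not analysed here. Granulosa cells, the somatic cells around the oocyte, were collected from ovarian follicles of Ji'ning grey goats, and total RNA was sequenced in 30 libraries. High fertility goats gave the groups HLG, HMG and HSG, and low fertility goats the groups LLG, LMG and LSG, where the second letter stands for large, medium or small follicles. Each group held 5 libraries, numbered 5, 7, 8, 9 and 10. The fertility classes rest on litter size, no drug or hormone treatment is named, and the ages of the goats were not given in the sources used here. The granulosa cells of a class and follicle size were divided into samples of few cells each, and no source used here ties a library to a goat, so the spread between libraries may be technical and is not shown to be the spread between goats.

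Splicing removes introns from a new transcript and joins its exons. SR proteins carry a domain rich in arginine and serine, bind exons and generally promote the use of nearby splice sites, whereas hnRNP proteins coat nascent RNA and often oppose exon inclusion, so the balance between both families shapes which isoforms a cell makes. U2AF reads the pyrimidine tract in front of the 3' splice site, and the SF3A and SF3B complexes are parts of the U2 snRNP, which holds the branch point. Nearly all dividing and secreting cells, granulosa cells included, need these factors.

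Values are FPKM (fragments mapped to a gene, per length of its transcript and per depth of its library), and many are exactly 0. An exact 0 can stand for a gene without reads or for a failed estimate, so a gene is called listed at 0 and no mean FPKM is given for single genes. Read totals were not used here, and no counting interval is given. A library had 301 to 9256 of all features above 0. LLG-7, HSG-5 and LLG-5 had the fewest, and these 3 libraries and HLG-5 are absent from the study's mapping table. Granulosa cell markers were unevenly detected in the same table. FSHR, the receptor of follicle stimulating hormone, was above 0 in 1 of 30 libraries, AMH in 1, INHA in 2 and CYP19A1, the aromatase, in 10. FSHR and AMH, which define the labelled cell type, were each at 0 in 29 libraries. Of the same list, INHBA, an activin subunit, was above 0 in 14 libraries and reached 26.8 FPKM, GATM in 9, FST, which binds activin, in 8 with up to 21.6 FPKM, HSD17B1 in 3 and SERPINE2 in 2. The summed FPKM of 9 granulosa markers ranged from 0 to 26.8 over the libraries, that of 5 oocyte markers from 0 to 10.2, that of 5 immune markers from 0 to 5.3 and that of 5 endothelial markers from 0 to 6.4, and the erythroid gene ALAS2 was above 0 in 5 libraries. Of the theca list, PTCH1 was above 0 in 18 libraries with up to 1.5 FPKM, and STAR in 7 with up to 3.06. LHCGR, which granulosa cells also express, was above 0 in 4 libraries and reached 38.7. PTCH1 was thus above 0 in more libraries than any granulosa marker listed. The endothelial gene KDR was above 0 in 14 libraries, as many as INHBA, with up to 0.77 FPKM. Whether other cells had a part in the results was not tested. Fewer cells of a type and less RNA per cell cannot be told apart in such samples.

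The splicing factor genes were patchily detected, and still more often above 0 than most features. None of the 38 genes was above 0 in all 30 libraries, and none was at 0 in all. A gene was above 0 in a median of 11.5 libraries, against 5 for all features. Of the 1140 values, 439 (38.5%) were above 0, compared with 23.9% of the values of the 17946 features with an NCBI gene number. The SR genes had 44.5% of their values above 0 and the hnRNP genes 43.7%, whereas the SF3 genes had 21.3% and U2AF2 had 16.7%. The median number of libraries above 0 was 13.5 for the hnRNP genes, 12 for the SR genes and 4.5 for the SF3 genes.

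Values above 0 were mostly small, as they were for all features. Of the 439 values, 22.8% lay below 0.1 FPKM, 187 (42.6%) reached 1 FPKM and 12 reached 10 FPKM. The features with an NCBI gene number had 128538 values above 0. Of these, 20.7% lay below 0.1 FPKM, 34.4% reached 1 FPKM and 3231 reached 10 FPKM. The median of the values above 0 was 1.03 FPKM for the SR genes, 0.62 for the hnRNP genes, 0.11 for the SF3 genes and 0.08 for U2AF2. It was 0.69 for all 38 genes together and 0.52 for all features with an NCBI gene number. FPKM is scaled by length, but these medians leave out the values at 0, and the lowest value above 0 differed between genes. It was 8.18 FPKM for SF3B5 and 0.01 for SF3B1. The medians are therefore not a ranking of genes or families by level.

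**Figure D1:**
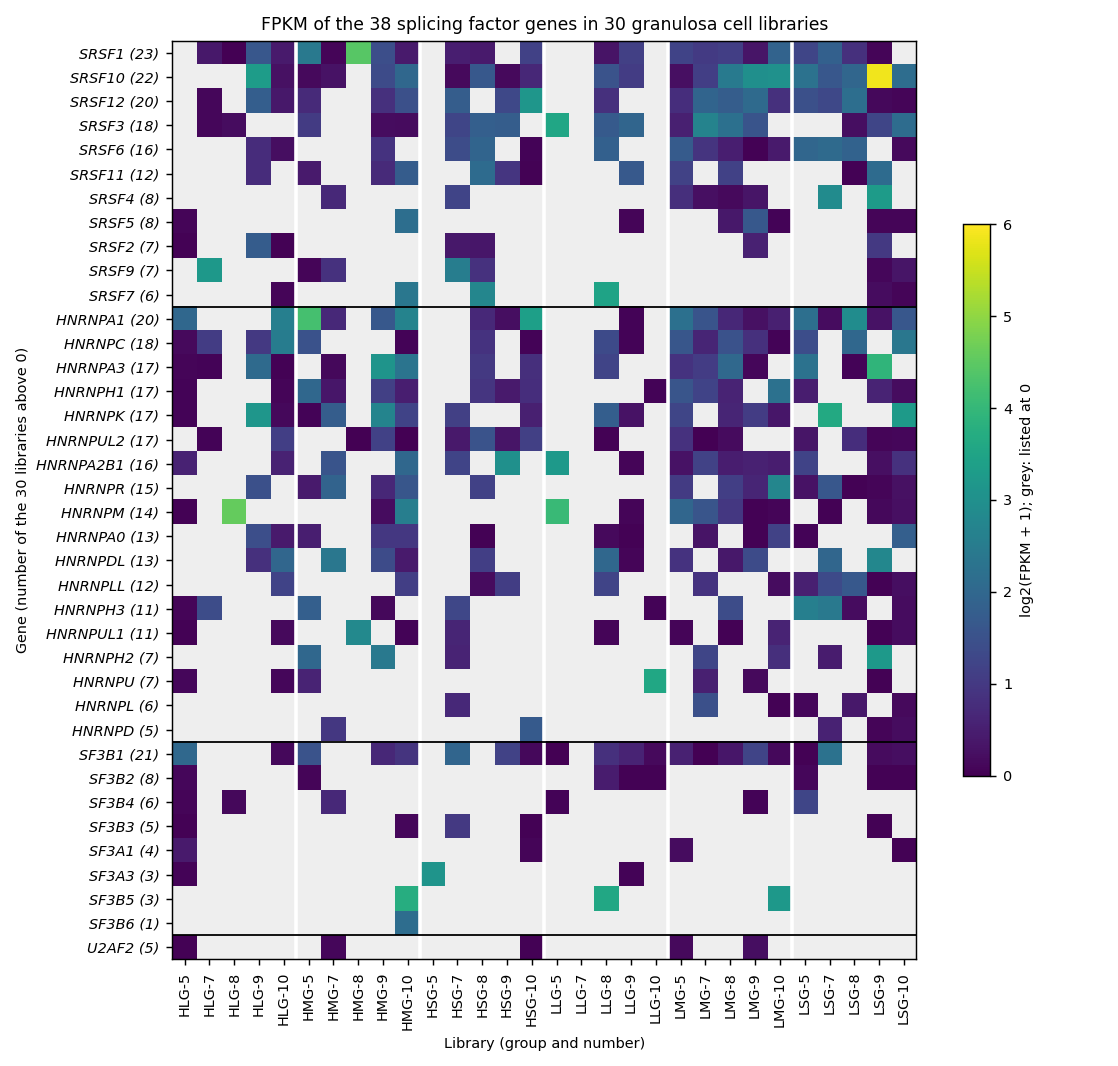
FPKM of the 38 genes (rows, by family, with the number of libraries above 0 in brackets) in the 30 libraries (columns, by group), coloured by log2(FPKM + 1), with grey for values listed at 0. SRSF1 is above 0 in 23 libraries and SF3B6 in 1, and the brightest field is SRSF10 in LSG-9 at 57.3 FPKM.

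SRSF1 (23 libraries), SRSF10 (22), SF3B1 (21), HNRNPA1 (20) and SRSF12 (20) were above 0 in the most libraries. HNRNPC and SRSF3 followed with 18 each, then HNRNPA3, HNRNPH1, HNRNPK and HNRNPUL2 with 17 each, HNRNPA2B1 and SRSF6 with 16 each, and HNRNPR with 15. HNRNPM was above 0 in 14 libraries, HNRNPA0 and HNRNPDL in 13, HNRNPLL and SRSF11 in 12, and HNRNPH3 and HNRNPUL1 in 11. SF3B2, SRSF4 and SRSF5 had 8 libraries above 0, HNRNPH2, HNRNPU, SRSF2 and SRSF9 had 7, and HNRNPL, SF3B4 and SRSF7 had 6. HNRNPD, SF3B3 and U2AF2 had 5, SF3A1 had 4, SF3A3 and SF3B5 had 3, and SF3B6 had 1. The 14 genes above 0 in at least 15 libraries were 36.8% of the 38, against 13.6% of the features with an NCBI gene number.

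Single libraries differed widely in how many of the 38 genes they held above 0. From library 5 to library 10, HLG had 19, 8, 4, 12 and 19 genes above 0, HMG had 17, 14, 3, 18 and 24, and HSG had 1, 17, 17, 10 and 16. In the low fertility groups, LLG had 5, 0, 17, 15 and 5, LMG had 21, 19, 21, 21 and 19, and LSG had 18, 15, 14, 26 and 24. LMG was even and high, LLG held the only library with none, and the other groups each mixed full and nearly empty libraries or, in LSG, ran from 14 upward. LMG alone had 9 genes above 0 in all 5 libraries (HNRNPA1, HNRNPA2B1, HNRNPC, HNRNPM, SF3B1, SRSF1, SRSF10, SRSF12 and SRSF6), LSG had 5 (HNRNPA1, HNRNPLL, HNRNPR, SRSF10 and SRSF12), HMG had SRSF1, and the other 3 groups had 0. As background, 9.48% of the features with an NCBI gene number were above 0 in all LMG libraries, 2.94% in all LSG libraries and 1.84% in all HMG libraries.

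**Figure D2:**
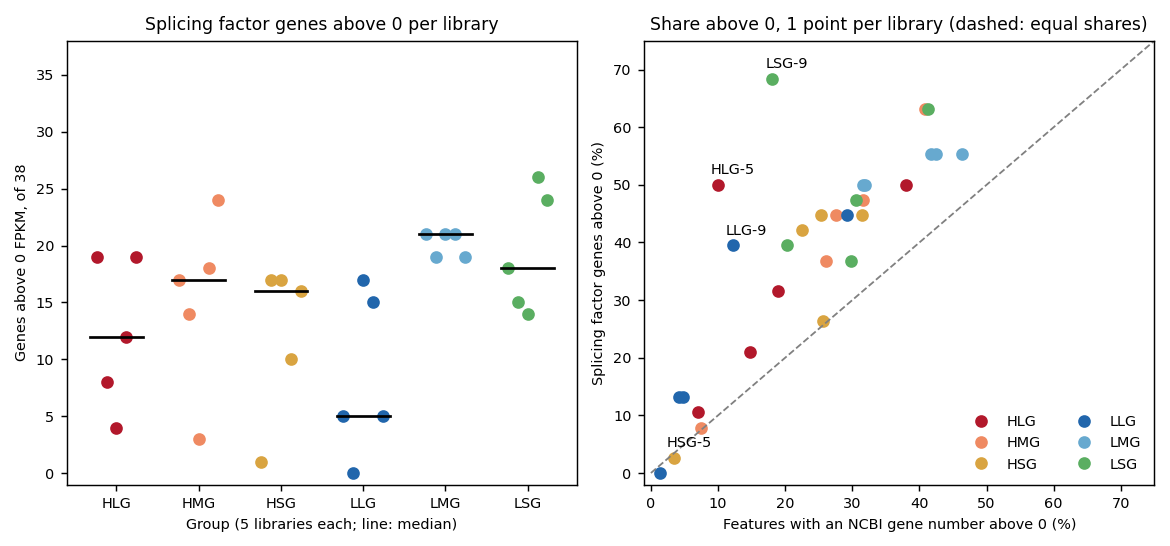
Left, number of the 38 splicing factor genes above 0 in each library by group, with lines at the medians. Right, percent of the 38 genes above 0 (vertical axis) against percent of the features with an NCBI gene number above 0 (horizontal axis), 1 point per library, where 28 of 30 points lie above the dashed line of equal shares, and HLG-5, LSG-9 and LLG-9 lie far above it.

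The number of splicing factor genes above 0 moved with the number of features above 0 in the same library. The share of the 38 genes exceeded that of the features with an NCBI gene number in 28 of 30 libraries, and the median ratio of both shares was 1.53. The exceptions were HSG-5 (1 gene) and LLG-7 (0 genes). In HLG-5, 19 of the 38 genes but 9.99% of the features were above 0, in LSG-9 68.4% against 18.1%, in LLG-9 39.5% against 12.2% and in LLG-5 13.2% against 4.19%. HLG-5, LLG-9 and LSG-9 also held many very low values. Of the genes above 0, 14 of 19 in HLG-5, 9 of 15 in LLG-9 and 11 of 26 in LSG-9 lay below 0.1 FPKM, and so did 48.2%, 51.5% and 40.3% of the features above 0 in these libraries. LLG-10 was alike, with 3 of 5 genes and 40.2% of the features above 0 below this limit. The numbers were 4 of 8 genes and 21.8% of the features in HLG-7, and 2 of 4 genes and 23.6% in HLG-8. In HLG-9, HMG-9, HSG-7 and HSG-9, 0 of the genes above 0 lay below 0.1 FPKM.

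Which gene led also changed from library to library. Over the 29 libraries with any of these genes above 0, 16 different genes had the highest FPKM, and HNRNPA1 led most often, in 5 libraries. The leading gene held a median of 28.6% of the summed FPKM of the 38 genes, from 15.6% in LMG-5 to 100% in HSG-5, and over 50% in 6 libraries. Summed FPKM of the 38 genes ranged from 7.61 to 33.6 in HLG, from 15.6 to 55.7 in HMG, from 7.6 to 25.8 in HSG, from 0 to 40.2 in LLG, from 21.7 to 32.8 in LMG and from 23.0 to 102 in LSG. As a share of the FPKM summed over the features with an NCBI gene number, the medians were 0.108% in HLG, 0.157% in HMG, 0.123% in HSG, 0.0599% in LLG, 0.150% in LMG and 0.165% in LSG. The ranges of all 6 groups overlapped.

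Among the SR proteins, SRSF1, which promotes exon inclusion and takes part in choosing 5' splice sites, was above 0 in the most libraries. From here on, the values of a group are given in the order of libraries 5, 7, 8, 9 and 10. SRSF1 FPKM was 0, 0.3, 0.01, 2.09 and 0.35 in HLG, 4.4, 0.05, 20.75, 1.72 and 0.35 in HMG, and 0, 0.41, 0.35, 0 and 1.22 in HSG. SRSF1 in the low fertility groups was 0, 0, 0.25, 1.19 and 0 in LLG, 1.32, 1.03, 1.16, 0.27 and 2.73 in LMG, and 1.37, 2.58, 0.77, 0.05 and 0 in LSG. HMG and LMG were the groups with SRSF1 above 0 in every library, HMG-8 was far above all others, and 4 of the 5 HSG and LLG values at 0 came from libraries with at most 5 of the 38 genes above 0.

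SRSF10, an SR protein that can repress splicing when it loses its phosphates, had the highest single value of all 38 genes. SRSF10 FPKM was 0, 0, 0, 9.04 and 0.21 in HLG, 0.11, 0.23, 0, 1.59 and 2.99 in HMG, and 0, 0.12, 2.15, 0.12 and 0.58 in HSG. SRSF10 in the low fertility groups was 0, 0, 1.88, 1.08 and 0 in LLG, 0.18, 1.16, 4.42, 6.98 and 7.19 in LMG, and 3.81, 2.08, 2.93, 57.32 and 3.44 in LSG. LMG and LSG had SRSF10 above 0 in every library, and LSG-9 with 57.3 FPKM lay far above the next value, 9.04 in HLG-9. Leaving LSG-9 aside, LSG ran from 2.08 to 3.81.

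SRSF12, a close relative of SRSF10, was above 0 in 20 libraries. SRSF12 FPKM was 0, 0.08, 0, 2.45 and 0.31 in HLG, 0.65, 0, 0, 0.78 and 1.76 in HMG, and 0, 2.41, 0, 1.46 and 7.83 in HSG. SRSF12 in the low fertility groups was 0, 0, 0.77, 0 and 0 in LLG, 0.71, 2.85, 2.43, 3.2 and 0.78 in LMG, and 1.75, 1.47, 3.5, 0.1 and 0.06 in LSG. As with SRSF10, every LMG and LSG library was above 0, and LLG had 1 library above 0. SRSF1, SRSF10 and SRSF12 were above 0 together in 17 libraries.

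SRSF3, a short SR protein that also links splicing to the export of mRNA, was unevenly spread within groups. SRSF3 FPKM was 0, 0.08, 0.14, 0 and 0 in HLG, 1.06, 0, 0, 0.15 and 0.13 in HMG, and 0, 1.39, 2.52, 2.4 and 0 in HSG. SRSF3 in the low fertility groups was 10.81, 0, 2.27, 2.88 and 0 in LLG, 0.44, 5.47, 3.65, 1.96 and 0 in LMG, and 0, 0, 0.17, 1.4 and 3.35 in LSG. The 5 HLG values were at most 0.14, whereas LLG combined 3 values of at least 2.27 with 2 at 0, and LMG ranged from 0 to 5.47.

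SRSF6, which regulates alternative exons, completes the SR genes above 0 in at least 15 libraries. SRSF6 FPKM was 0, 0, 0, 0.69 and 0.17 in HLG, 0, 0, 0, 0.83 and 0 in HMG, and 0, 1.63, 2.84, 0 and 0.04 in HSG. SRSF6 in the low fertility groups was 0, 0, 2.58, 0 and 0 in LLG, 2.3, 0.88, 0.41, 0.03 and 0.34 in LMG, and 2.93, 3.21, 2.72, 0 and 0.12 in LSG. It was above 0 in 10 low and 6 high fertility libraries and never exceeded 3.21 FPKM. All 5 LMG libraries and 1 of 5 HMG libraries were above 0.

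The remaining SR genes were above 0 in 6 to 12 libraries. SRSF4 FPKM was 0 in all 5 libraries of HLG, 0, 0.62, 0, 0 and 0 in HMG, and 0, 1.35, 0, 0 and 0 in HSG. SRSF4 in the low fertility groups was 0 in all 5 libraries of LLG, 0.75, 0.18, 0.11, 0.26 and 0 in LMG, and 0, 6.41, 0, 8.78 and 0 in LSG. No large follicle library had SRSF4 above 0, and LSG-7 and LSG-9 had the 2 high values. SRSF7, which binds RNA through an RRM and a zinc knuckle, had the highest median over its libraries above 0 of all genes with at least 5 such libraries, 2.17 FPKM. Its 6 values were 0.05 in HLG-10, 4.2 in HMG-10, 5.74 in HSG-8, 10.2 in LLG-8, 0.14 in LSG-9 and 0.06 in LSG-10, so that 3 libraries carried that median. HNRNPA1 (2.02 FPKM) and SRSF10 (1.98 FPKM) came next by this median. SRSF9 reached 8.24 FPKM in HLG-7, SRSF5 3.52 in HMG-10, SRSF11 3.28 in HSG-8 and SRSF2, a component of nuclear speckles, 2.34 in HLG-9. SRSF2 overlaps METTL23 and MFSD11 in the reference, and whether reads were counted by strand is not given in the sources used here.

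Of the hnRNP genes, HNRNPA1, an abundant protein that binds exonic and intronic silencers, was above 0 in the most libraries. HNRNPA1 FPKM was 2.99, 0, 0, 0 and 5.02 in HLG, 17.89, 0.61, 0, 2.12 and 5.42 in HMG, and 0, 0, 0.62, 0.17 and 9.53 in HSG. HNRNPA1 in the low fertility groups was 0, 0, 0, 0.04 and 0 in LLG, 3.68, 1.94, 0.58, 0.2 and 0.43 in LMG, and 3.59, 0.14, 6.54, 0.23 and 2.09 in LSG. LMG and LSG were above 0 throughout, and large follicles had 3 of 10 libraries above 0. The highest value, 17.9 FPKM in HMG-5, was followed by 9.53 in HSG-10. Values of genes with near-identical copies elsewhere in the genome, such as processed pseudogenes, are uncertain, because uniquely aligned reads alone were kept.

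HNRNPA2B1 and HNRNPA3 are close relatives of HNRNPA1 that also act in RNA transport. HNRNPA2B1 FPKM was 0.48, 0, 0, 0 and 0.49 in HLG, 0, 1.93, 0, 0 and 3.02 in HMG, and 0, 1.36, 0, 7.1 and 0 in HSG. HNRNPA2B1 in the low fertility groups was 8.46, 0, 0, 0.05 and 0 in LLG, 0.22, 1.28, 0.39, 0.47 and 0.4 in LMG, and 1.32, 0, 0, 0.18 and 0.8 in LSG. Its LMG values were all above 0 but at most 1.28, and the 2 highest values stood in LLG-5 and HSG-9. HNRNPA3 FPKM was 0.05, 0.04, 0, 3.19 and 0.02 in HLG, 0, 0.09, 0, 7.66 and 3.98 in HMG, and 0, 0, 1, 0 and 0.74 in HSG. HNRNPA3 in the low fertility groups was 0, 0, 1.35, 0 and 0 in LLG, 0.85, 1.09, 3.09, 0.08 and 0 in LMG, and 3.79, 0, 0.04, 14.14 and 0 in LSG. LSG-9 and HMG-9 had the highest HNRNPA3 values. HNRNPA1 was above 0 together with HNRNPA2B1 in 14 libraries and together with HNRNPA3 in 14.

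HNRNPC packages nascent transcripts and binds uridine tracts. HNRNPC FPKM was 0.12, 1.09, 0, 1.01 and 4.71 in HLG, 1.83, 0, 0, 0 and 0.04 in HMG, and 0, 0, 0.85, 0 and 0.04 in HSG. HNRNPC in the low fertility groups was 0, 0, 1.53, 0.04 and 0 in LLG, 2.04, 0.54, 1.83, 0.78 and 0.04 in LMG, and 1.69, 0, 2.99, 0 and 4.22 in LSG. HLG had 4 and LMG 5 libraries above 0, HMG, HSG and LLG had 2 each, and no value exceeded 4.71 FPKM.

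HNRNPH1 binds runs of guanosines near splice sites. HNRNPH1 FPKM was 0.04, 0, 0, 0 and 0.06 in HLG, 3.03, 0.28, 0, 1.2 and 0.42 in HMG, and 0, 0, 0.91, 0.35 and 0.72 in HSG. HNRNPH1 in the low fertility groups was 0, 0, 0, 0 and 0.04 in LLG, 1.97, 1.31, 0.51, 0 and 3.71 in LMG, and 0.39, 0, 0, 0.52 and 0.14 in LSG. All 10 large follicle libraries stood at 0.06 FPKM or less, whereas 8 of 10 medium follicle libraries had at least 0.28. The medium libraries at 0 were HMG-8 and LMG-9.

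HNRNPK, which binds cytidine-rich RNA through KH domains, reached higher values. HNRNPK FPKM was 0.04, 0, 0, 7.85 and 0.09 in HLG, 0.04, 2.39, 0, 5.48 and 1.31 in HMG, and 0, 1.21, 0, 0 and 0.43 in HSG. HNRNPK in the low fertility groups was 0, 0, 2.46, 0.23 and 0 in LLG, 1.38, 0, 0.53, 1.08 and 0.28 in LMG, and 0, 11.46, 0, 0 and 8.69 in LSG. LSG-7, LSG-10 and HLG-9 had the highest values, and 3 other LSG libraries were at 0. The span of HNRNPK overlaps the miRNA gene MIR7 in the reference.

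HNRNPR, which is related to SYNCRIP and binds mRNA in both nucleus and cytoplasm, was above 0 in 15 libraries. HNRNPR FPKM was 0, 0, 0, 1.74 and 0 in HLG, 0.36, 2.74, 0, 0.59 and 2.03 in HMG, and 0, 0, 1.25, 0 and 0 in HSG. HNRNPR in the low fertility groups was 0 in all 5 libraries of LLG, 1.05, 0, 1.16, 0.53 and 5.76 in LMG, and 0.23, 2.11, 0.02, 0.05 and 0.21 in LSG. Large follicles had 1 of 10 libraries above 0, compared with 8 of 10 from medium and 6 of 10 from small follicles. LSG was above 0 throughout, and HSG in 1 library.

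HNRNPUL2 is a relative of the nuclear scaffold protein HNRNPU. HNRNPUL2 FPKM was 0, 0.04, 0, 0 and 1.17 in HLG, 0, 0, 0.01, 1.23 and 0.01 in HMG, and 0, 0.33, 1.91, 0.27 and 1.21 in HSG. HNRNPUL2 in the low fertility groups was 0, 0, 0.03, 0 and 0 in LLG, 0.82, 0.01, 0.13, 0 and 0 in LMG, and 0.27, 0, 0.71, 0.06 and 0.07 in LSG. No value exceeded 1.91 FPKM, and HSG and LSG had 4 libraries above 0 each. HNRNPU itself was above 0 in 7 libraries, in 6 of them at 0.52 FPKM or less and in LLG-10 at 10.9.

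HNRNPM, a regulator of alternative splicing, had the second highest value of all 38 genes. HNRNPM FPKM was 0.03, 0, 22.82, 0 and 0 in HLG, 0, 0, 0, 0.15 and 4.95 in HMG, and 0 in all 5 libraries of HSG. HNRNPM in the low fertility groups was 15.77, 0, 0, 0.06 and 0 in LLG, 2.97, 2.01, 0.95, 0.02 and 0.05 in LMG, and 0, 0.03, 0, 0.1 and 0.19 in LSG. The 2 high values stood in HLG-8 and LLG-5, libraries with 4 and 5 of the 38 genes above 0. All HSG libraries were at 0.

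The other hnRNP genes were above 0 in 5 to 13 libraries. The highest FPKM was 8.38 for HNRNPH2 (LSG-9), 6.08 for HNRNPUL1 (HMG-8), 5.89 for HNRNPDL (LSG-9), 5.0 for HNRNPH3 (LSG-5), 2.53 for HNRNPA0 (LSG-10), 2.23 for HNRNPD (HSG-10), 2.14 for HNRNPLL (LSG-8) and 1.75 for HNRNPL (LMG-7). HNRNPLL was above 0 in all 5 LSG libraries and in 7 of 25 others. HNRNPD, which binds AU-rich elements of mRNA, and its neighbour HNRNPDL were above 0 together in 3 libraries and both at 0 in 15. The spans of HNRNPH3 and HNRNPL overlap PBLD and a tRNA gene in the reference.

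SF3B1, the core of the SF3B complex that clamps the branch point, stood apart from the other 7 SF3 genes in the number of libraries. SF3B1 FPKM was 3.07, 0, 0, 0 and 0.09 in HLG, 1.88, 0, 0, 0.6 and 0.88 in HMG, and 0, 2.86, 0, 1.26 and 0.1 in HSG. SF3B1 in the low fertility groups was 0.01, 0, 0.78, 0.52 and 0.11 in LLG, 0.47, 0.01, 0.29, 1.34 and 0.09 in LMG, and 0.03, 3.81, 0, 0.13 and 0.17 in LSG. It was above 0 in 21 libraries, against 1 to 8 for the other SF3 genes, and in 6 libraries it was the only SF3 gene above 0. Its highest value was 3.81 FPKM in LSG-7. No group stood apart, since each combined values below 0.2 with values of at least 0.78.

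A library had a median of 1.5 SF3 genes above 0, and the highest number was 6 in HLG-5. There, SF3B1 was at 3.07 and SF3A1 at 0.36 FPKM, and SF3A3, SF3B2, SF3B3 and SF3B4 lay between 0.02 and 0.07. SF3B5, a small subunit, was above 0 in 3 libraries and high in each, at 12.3 FPKM in HMG-10, 11.2 in LLG-8 and 8.18 in LMG-10. SF3B6, the subunit that contacts the branch point adenosine, was above 0 in HMG-10 alone, at 3.39 FPKM, and its span overlaps FAM228B in the reference. SF3A3 was at 7.6 FPKM in HSG-5, where it was the only one of the 38 genes above 0, and at 0.04 in HLG-5 and LLG-9. SF3B2 never exceeded 0.37 FPKM.

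U2AF2, the large U2AF subunit, was above 0 in 5 libraries. U2AF2 was at 0.03 FPKM in HLG-5, 0.08 in HMG-7, 0.03 in HSG-10, 0.11 in LMG-5 and 0.16 in LMG-9. All these values are far below 1 FPKM, and the other 25 libraries were at 0.

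Differences between groups were tested with limma on log2(FPKM + 1) over the 6058 features that had more than 0.5 FPKM in at least 5 libraries. Of the 38 genes, 22 met this limit (57.9%, against 29.8% of the features with an NCBI gene number): 14 hnRNP genes, 7 SR genes and SF3B1. The other 16 genes, with U2AF2 and 7 SF3 genes among them, were not tested by limma. All differences are of mean log2(FPKM + 1), the first-named group minus the second, and this scale understates changes of low values. The comparisons between fertility classes and between follicle sizes share libraries, so their values are not independent of each other.

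None of the 22 genes passed an adjusted p of 0.05 in any of the 7 contrasts or in the test of interaction (limma, Benjamini-Hochberg over the 6058 features). The background was likewise 0% in all but 1 of these 8 tests. In medium against small follicles, 1 feature was called, which is 0.0165%. The counts at an unadjusted p below 0.05 follow for each contrast beside the share of all features.

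In large follicles, 1 of 22 genes (4.55%) had an unadjusted p below 0.05 between HLG and LLG, against 4.80% of all features. That gene was SRSF3, with a lower mean in HLG and a difference of -1.39 ± 0.61 (SE, 5 libraries each, limma adjusted p = 0.976). Its HLG values (at most 0.14 FPKM) overlapped those of LLG, where 2 libraries were at 0. Without LLG-5, which had 10.8 FPKM, the difference was -0.86 ± 0.59 (limma adjusted p = 1). The unadjusted p of SRSF3 was below 0.05 in 34 of 39 alternatives. Many of these left out a library with no part in the contrast, which cannot change the difference. Such counts are therefore no measure of stability. The same holds for the later counts of this kind, except in fertility averaged over sizes, where every library has a part. In the other direction HNRNPC had the lowest p, with a difference of 0.67 ± 0.52 (limma adjusted p = 1), which was 0.28 without HLG-10. The median difference of the 22 genes was 0.17, and that of all features 0.10. The direction of the median was not kept, since it was 0 without HLG-9. It was -0.08 (all features -0.04) with a covariate, log2 of the count of features above 0 in a library.

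In medium follicles, 0 of 22 genes reached an unadjusted p below 0.05 between HMG and LMG, against 5.15% of all features. SRSF3 had a lower mean in HMG, with a difference of -1.12 ± 0.61 (SE, limma adjusted p = 0.985), and HNRNPA1 a higher one, with 0.81 ± 0.73 (limma adjusted p = 1). The HMG-5 value of HNRNPA1, 17.9 FPKM, exceeded all LMG values, and HMG-8 was at 0. The difference was 0.21 without HMG-5 and 1.27 without HMG-8. The median difference was 0.07 for the 22 genes and -0.07 for all features, and it became -0.18 for these genes without HMG-10. With the covariate both medians were above 0, at 0.16 and 0.03.

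In small follicles, 2 of 22 genes (9.09%) had an unadjusted p below 0.05 between HSG and LSG, against 6.39% of all features. SRSF10 had the lowest p, with a lower mean in HSG and a difference of -2.25 ± 0.75 (SE, limma adjusted p = 0.509). HSG values ran from 0 to 2.15 FPKM and LSG values from 2.08 to 57.3, so the groups overlapped in 1 library each. Without LSG-9 the difference was -1.48 ± 0.70 (limma adjusted p = 0.741), and without HSG-5, where 1 of the 38 genes was above 0, it was -2.12 ± 0.81. SRSF4 was the other gene, at -0.99 ± 0.43 (limma adjusted p = 0.717), and rested on LSG-7 and LSG-9, since the other 3 LSG libraries were at 0. The unadjusted p of SRSF4 was below 0.05 in 26 of the 33 alternatives in which it was tested. Leaving out LSG-7 or LSG-9 removed SRSF4 from the test, so these cases are not among the 33. HNRNPUL2 had a higher mean in HSG, with a difference of 0.43 ± 0.30 (limma adjusted p = 0.879), which was 0.21 without HSG-8.

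A lower mean in HSG than in LSG was seen for 15 of the 22 genes (68.2%) and for 58.7% of all features. The median difference was -0.44 for the 22 genes and -0.09 for all features. It was -0.37 against -0.02 without HSG-5, and -0.28 against -0.13 without LSG-9, when 21 of the genes met the limit. Other pseudocounts moved it to -1.10 (0.1 FPKM) and -0.14 (5 FPKM), and without the filter on low values the median over all 38 genes was -0.02.

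Averaged over sizes, SRSF10 and SRSF3, 2 of 22 genes (9.09%), had an unadjusted p below 0.05 between high and low fertility, against 3.95% of all features. Both had lower means in high fertility, SRSF10 with a difference of -1.08 ± 0.44 (SE, 15 libraries each, limma adjusted p = 0.952) and SRSF3 with -0.75 ± 0.35 (limma adjusted p = 0.952). Neither gene had the same sign in all sizes. The difference of SRSF10 was 0.20 ± 0.75 between HLG and LLG, and that of SRSF3 was 0.25 ± 0.61 between HSG and LSG. Both are smaller than their SE, so they do not show a reversed direction. The unadjusted p was below 0.05 in 38 of 39 alternatives for SRSF10 but in 21 of 39 for SRSF3, which was at -0.58 ± 0.33 without LLG-5 (limma adjusted p = 0.975). HNRNPUL2 had a difference of 0.23 ± 0.17 (limma adjusted p = 0.952), which was 0.15 without HMG-9. Without LSG-9, the difference of SRSF10 was -0.82 ± 0.39 (limma adjusted p = 0.946), and without HLG-9 it was -1.30 ± 0.41 (limma adjusted p = 0.964).

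**Figure D3:**
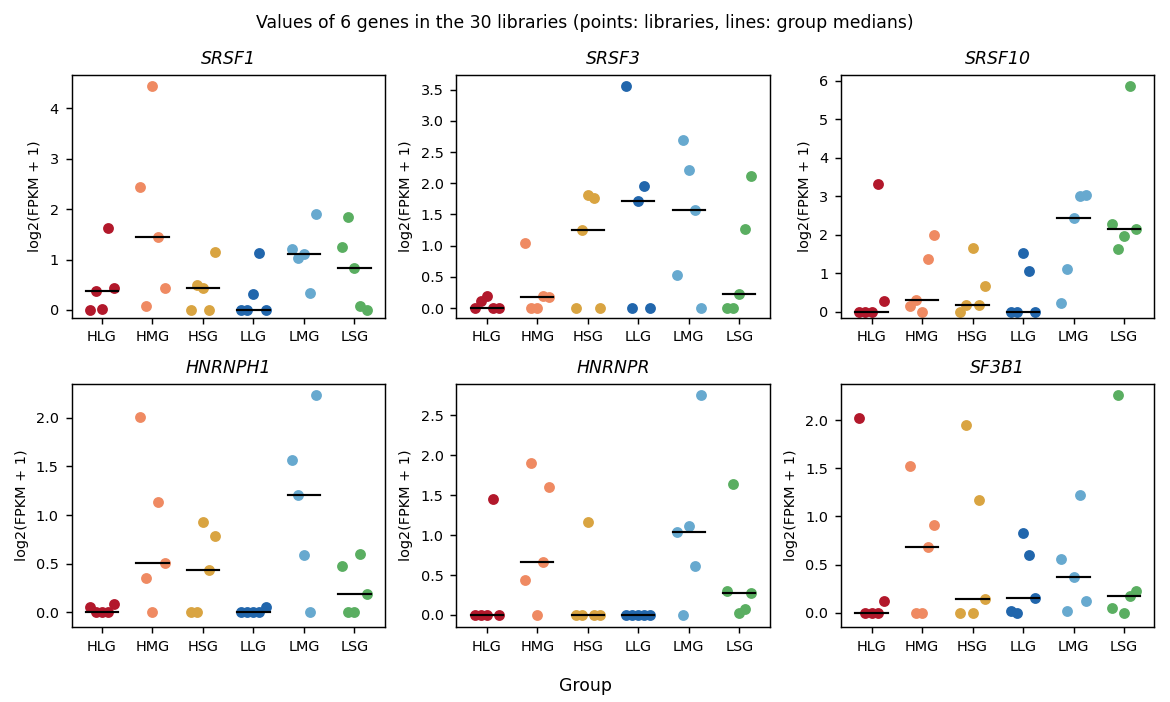
log2(FPKM + 1) of SRSF1, SRSF3, SRSF10, HNRNPH1, HNRNPR and SF3B1 in the 6 groups, with 1 point per library and lines at the group medians, where each panel has its own vertical scale. HNRNPH1 and HNRNPR lie at or near 0 in nearly all large follicle libraries (HLG, LLG), and SRSF10 lies above 0 in all LMG and LSG libraries.

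For follicle sizes, the libraries from large follicles had fewer features above 0. The median share of features with an NCBI gene number above 0 was 14.8% in HLG and 4.81% in LLG, compared with 27.5% in HMG, 41.7% in LMG, 25.3% in HSG and 29.9% in LSG. This moves with the contrasts that follow, and its part in them was not tested beyond a fit that holds how many features a library has above 0.

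Large follicles had a lower mean than medium follicles in 20 of the 22 genes (90.9%), as they did in 78.3% of all features. The median difference was -0.22 for the 22 genes and -0.25 for all features, and with the covariate -0.06 and -0.03. An unadjusted p below 0.05 was reached by 3 of 22 genes (13.6%), against 11.5% of all features, so the share was near the background. HNRNPH1 had the lowest p, with a lower mean in large follicles and a difference of -0.94 ± 0.28 (SE, 10 libraries each, limma adjusted p = 0.327). It met the limit of the test through medium and small follicle libraries alone, since no large one exceeded 0.06 FPKM. Its entry into the test was thus tied to the groups where it was high. The difference was -0.87 ± 0.33 for HNRNPR (limma adjusted p = 0.363) and for SRSF1 -1.05 ± 0.42 (limma adjusted p = 0.384). In another fit, log2 of the count of features above 0 entered limma as a covariate. The differences were -0.82 ± 0.34 for HNRNPH1, -0.70 ± 0.40 for HNRNPR and -1.21 ± 0.52 for SRSF1 (each with a limma adjusted p of 0.998). HNRNPR then no longer had an unadjusted p below 0.05. Without HMG-8, which had 20.8 FPKM of SRSF1 and 3 genes above 0, SRSF1 was at -0.72 ± 0.36 (limma adjusted p = 0.362), and its unadjusted p was no longer below 0.05. HNRNPM was the lowest-p gene in the other direction, at 0.14 ± 0.49 (limma adjusted p = 0.924), and its sign turned without HLG-8 (-0.32) and without LLG-5 (-0.27).

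**Figure D4:**
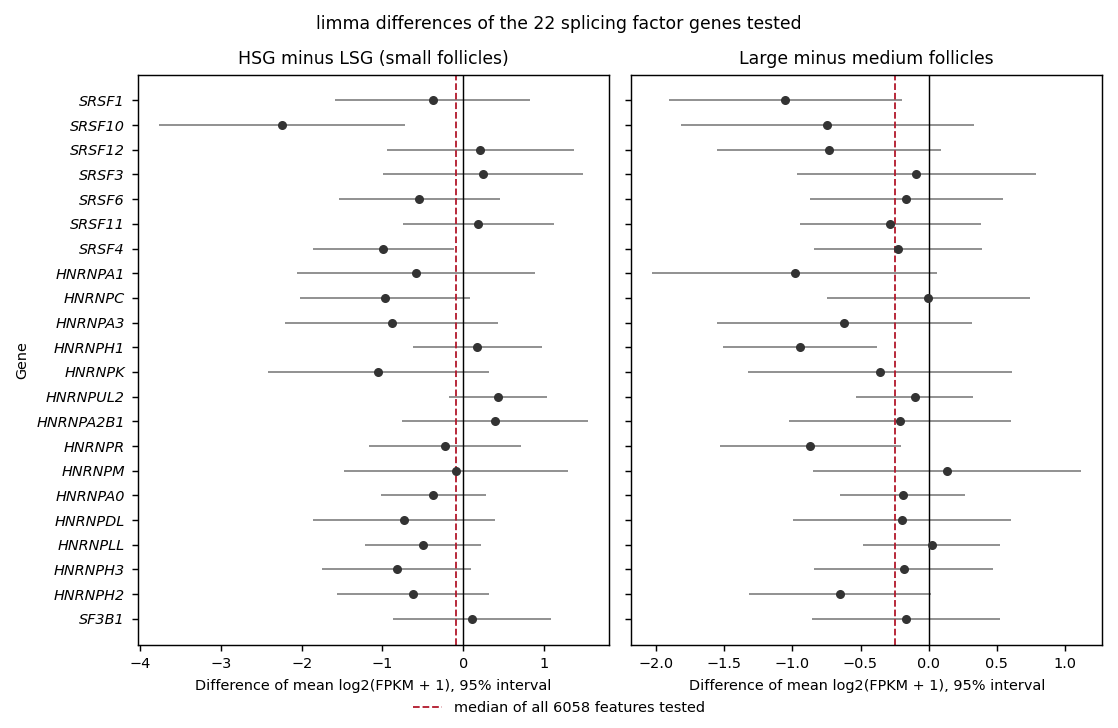
Differences of mean log2(FPKM + 1) with 95% intervals for the 22 genes tested, HSG minus LSG on the left and large minus medium follicles on the right. The dashed lines mark the median of all 6058 features, -0.09 on the left and -0.25 on the right, and 20 of 22 points on the right lie below 0.

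Between large and small follicles, 2 of 22 genes (9.09%) had an unadjusted p below 0.05, against 8.42% of all features. SRSF4 had a difference of -0.74 ± 0.31 (SE, limma adjusted p = 0.557), with all 10 large and 7 of 10 small follicle libraries at 0. SRSF12 had one of -0.83 ± 0.41 (limma adjusted p = 0.581), and of -0.48 ± 0.43 with the covariate (limma adjusted p = 0.966). The unadjusted p of SRSF12 was below 0.05 in 13 of 39 alternatives, and that of SRSF4 in all 33 in which it was tested. SRSF4 met the limit of the test through medium and small follicle libraries alone. It fell below that limit when LSG-7 or LSG-9 was left out, so the 33 do not cover the loss of either of its highest values. HNRNPM had a higher mean in large follicles, with a difference of 0.83 ± 0.49 (limma adjusted p = 0.607), with its high values in HLG-8 and LLG-5. That difference was 0.38 without HLG-8 and 0.43 without LLG-5. The median difference was -0.30 for the 22 genes and -0.19 for all features, and with the covariate -0.12 and -0.04.

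Between medium and small follicles, 2 of 22 genes (9.09%) had an unadjusted p below 0.05, against 5.13% of all features. Both had higher means in medium follicles, HNRNPH1 with a difference of 0.62 ± 0.28 (SE, limma adjusted p = 0.934) and HNRNPR with 0.67 ± 0.33 (limma adjusted p = 0.938). This count depends on the setting, since the unadjusted p was below 0.05 in 29 of 38 alternatives for HNRNPH1 and in 12 of 39 for HNRNPR. In the other direction SRSF4 had the lowest p, with -0.52 ± 0.31 (limma adjusted p = 0.951). The means of 11 genes were higher and those of 11 lower.

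The test that the fertility difference is equal in the 3 sizes gave an unadjusted p below 0.05 for 0 of 22 genes, against 4.67% of all features. HNRNPC had the lowest p (limma F test, adjusted p = 0.895), with differences of 0.67 in large, -0.61 in medium and -0.97 in small follicles.

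SF3B1 was the only tested gene of the branch point complexes, and its differences lay between -0.22 and 0.17 in the 7 contrasts. SRSF6 had negative differences in all 7 contrasts, from -0.67 to -0.16, with no adjusted p below 0.588 (limma). These 7 signs are not independent, since the contrasts are built from the same group means. The intervals were wide throughout. For SF3B1 the 95% interval in small follicles, HSG minus LSG, ran from -0.87 to 1.09.

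Because so many values are 0, the number of libraries above 0 was compared as well, by Fisher's exact test over all 20125 features (two-sided, sizes or fertility classes pooled for the averaged contrasts). None of the 38 genes passed an adjusted p of 0.05, nor did any feature (0%). At an unadjusted p below 0.05 the background was 0.303% between HLG and LLG, 1.49% between HMG and LMG, 0.626% between HSG and LSG and 0.850% for fertility averaged over sizes. For sizes it was 6.17% between large and medium, 1.66% between large and small and 0.979% between medium and small follicles. In HMG against LMG, SRSF6 was above 0 in 1 and 5 libraries (Fisher's exact p = 0.0476), and in HSG against LSG HNRNPR was above 0 in 1 and 5 (Fisher's exact p = 0.0476). In large against medium follicles there were 3 such genes: HNRNPR with 1 and 8 of 10 libraries (Fisher's exact p = 0.00548, adjusted p = 0.346), HNRNPA1 with 3 and 9 (p = 0.0198 by the same exact test) and SRSF4 with 0 and 5 (p = 0.0325 by the same exact test). The other 4 contrasts had 0 such genes.

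The wider splicing machinery was described by 94 genes in 7 lists by role, of which 93 were in the table and TRA2B was not analysed here. The 16 snRNP proteins listed had the lowest detection, above 0 in a median of 2.5 libraries, and SNRPG, an Sm ring protein, led them with 12. SNRNP25 and SNRNP27 of this list reached 119 and 104 FPKM, the highest values of all listed splicing genes, but were above 0 in 2 and 7 libraries. Outside LLG and HSG, the summed FPKM of this list was at most 7.52 in any library. The 23 genes of catalytic steps and helicases had a median of 6 libraries, with CDC5L at 21, and the 9 kinases that phosphorylate SR proteins had 7, with DYRK1A at 21. The 6 partners at the branch point and 3' splice site had 5.5, with RBM17 at 11. Detection was higher for 9 SR-related proteins, with a median of 18 libraries and SON at 21, for 18 regulators of alternative splicing (14.5, CELF2 at 26, MBNL1 at 25) and for 12 hnRNP proteins with other symbols (14, SYNCRIP at 26). By the same median, the SF3 genes (4.5) stood near the snRNP, branch point and catalytic lists, and the HNRNP (13.5) and SRSF (12) genes near the regulators. Transcript length was not taken into account in these counts. The median over all features was 5 libraries, so the SF3, branch point and catalytic medians lay near the background. Single genes varied widely within a list, as SF3B1 with 21 libraries among the SF3 genes.

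Of these 93 genes, 38 were tested by limma, and 0 passed an adjusted p of 0.05 in any of the 8 tests. At an unadjusted p below 0.05, HSG against LSG had 4 of 38 (3 lower, 1 higher), which is 10.5%, against 6.39% of all features. Large against small follicles also had 4 (all lower), against 8.42% of all features. Fertility averaged over sizes had 3 (2 lower), or 7.89%, against 3.95%, and the interaction had 3, against 4.67%. Medium against small follicles had 2, or 5.26%, against 5.13%, and large against medium 2 (both lower), against 11.5%. HLG against LLG and HMG against LMG had 1 each, or 2.63%, against 4.80% and 5.15%. The 4 genes that follow, all from HSG against LSG, were singled out after their values were seen. RBM39, an SR-like coactivator, had a difference of -1.33 ± 0.36 (SE, limma adjusted p = 0.424), TARDBP of -1.43 ± 0.42 (limma adjusted p = 0.436) and ELAVL1, which stabilises mRNA, of -1.81 ± 0.53 (limma adjusted p = 0.436). SRRM1, a splicing coactivator, had a higher mean in HSG, with a difference of 1.38 ± 0.57 (limma adjusted p = 0.699).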

How the data were processed

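Total RNA of granulosa cells was measured in 30 libraries, grouped by the titles of the samples. Per the methods, the authors aligned reads to the goat genome, kept those with a unique match, dropped duplicates (picard) and let Cufflinks compute FPKM. The genome build and the strand of counting are not given in the sources used here, and the methods name an Ensembl annotation whereas features carry NCBI gene numbers, so the annotation behind the values is unclear. The deposited FPKM values were used as they stand. Symbols, overlaps and neighbours came from the RefSeq gene table of goat assembly ARS1.2, with no coordinates used. Features above 0.5 FPKM in at least 5 libraries (6058) were tested with limma 3.58.1 (R 4.3.3) on log2(FPKM + 1), with 6 group means in 1 fit, a trended robust prior, two-sided p-values and Benjamini-Hochberg adjustment over all features tested. Fisher's exact test on libraries above 0 (scipy 1.17.1) was an alternative, beside other pseudocounts (0.1 and 5), filters, weights and scalings and each library left out. Both tests were tested on simulated data, with no outcome given here. How limma behaves with this many values at exactly 0 was not tested. Named genes were those above 0 in at least 15 libraries, the first of each family, the lowest p per contrast and direction, genes above 0 in 2 libraries or fewer, any called gene, and the 3 with the highest median above 0 among genes above 0 in at least 5 libraries. The genes and lists were chosen with earlier results of these data known.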

Additional observations from a re-analysis of the deposited data

Results flagged for a closer look

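The share of the 38 splicing factor genes in the summed FPKM of features with an NCBI gene number was 0.520% in LSG-9, whereas the other 4 LSG libraries lay between 0.121% and 0.205%. This gap is 0.789 of the range of the group, beyond Dixon's 95% limit for 5 samples. SRSF10 held 56.2% of the summed FPKM of the 38 genes in LSG-9. Of 18 sets of 5 libraries searched (genes above 0, this share and features above 0 in 6 groups), 1 stood out, and chance alone, at about 1 in 20, would give 0.9. Values of single genes were not searched in this way. Without LSG-9, the difference of SRSF10 between HSG and LSG was -1.48 ± 0.70 (SE, limma adjusted p = 0.741) in place of -2.25 ± 0.75.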

How the results depend on the processing

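Each of the 8 tests gave 0 called genes of the 38 in the main fit and in all 319 alternative counts, Fisher's exact test included, and the lowest adjusted p of any of these genes in any setting was 0.0684 (limma with sample quality weights, HNRNPH1 in large against medium follicles). All features gave 0 to 12 calls in these alternatives. Of the alternative values of the 14 named log2 differences, many could not change, since the library left out had no part in the contrast. Over all 528 values, 5 changed sign and none passed the threshold. All 5 were HNRNPM in large against medium follicles. The difference was -0.44 with a pseudocount of 0.1 and -0.18 with log2 of the count of features above 0 as a covariate. It was -0.16 without the 4 libraries absent from the mapping table, -0.32 without HLG-8 and -0.27 without LLG-5. Over all single libraries left out, this difference ranged from -0.32 to 0.39. Higher limits in place of 0 lowered the median number of genes per library. Above 0.5 FPKM it was 3 in HLG, 10 in HMG, 8 in HSG, 3 in LLG, 13 in LMG and 9 in LSG, and at 1 FPKM or more 3, 8, 5, 3, 9 and 7. As a share of the FPKM of all features, the median was 0.0295% in HLG, 0.0435% in HMG, 0.0327% in HSG, 0.0166% in LLG, 0.0406% in LMG and 0.0441% in LSG, since this sum also holds features without an NCBI gene number. The library numbers were not treated as pairs, because neither labels nor methods tie a number to a goat. Of 75 same-numbered pairs of libraries, 1 had a correlation of deviations over 0.1. Whether a number stands for a shared batch was not tested. With a replicate block, 0 genes were called in each test. The added medians of the 22 tested genes under each limma setting were chosen after seeing the data. Read totals were not used here, so no limit of detection is given for a value listed at 0, and 16 of the 38 genes were too rarely above the limit to be tested by limma.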
